A study of Mus musculus with 4 samples.

Results

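The genes described here are the 7 genes Trem2, Gpnmb, Spp1, Cd63, Cd9, Lgals3 and Fabp5, which are often listed together as genes of lipid-associated macrophages. They are 7 of the 32285 genes in the matrices, of which 18264 had a UMI (a counted RNA molecule) in the cells kept. The list was drawn up with earlier results of these cells known, among them the leading genes of macrophage clusters and the zone values of Cd63 and Lgals3, so levels and differences of the 7 genes are given as a description, with no p of their own. Each gene was found by its symbol and had 1 identifier. The UMIs were followed through 14 lists of marker genes that assign each cell to a class, through both tissue zones and through every library.

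The cells were CD45+ leukocytes, taken from healthy liver of PA-GFP C57BL/6 mice, which carry a green fluorescent protein that light switches on. All libraries had the photoactivation treatment, and the groups differed in the labelled tissue zone, PV (2 libraries) or CV (2 libraries), the zones of the portal and the central vein in the liver lobule. The labels do not give the age or number of the mice, the promoter of the transgene, or whether the libraries of a zone came from separate mice. Calls and p-values between zones reflect only the spread between libraries, which may be technical. Those between classes of macrophages come from differences within a library and reflect only how these vary between libraries, which may be technical too. For zones, with 2 libraries against 2, an exact two-sided permutation test cannot go below p = 0.333.

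Trem2 is a receptor of macrophages and microglia that binds lipids and lipoproteins and signals through the adaptor Tyrobp. Spp1 encodes osteopontin, a secreted protein that binds integrins and Cd44. Gpnmb is a transmembrane glycoprotein of lysosomes and the cell surface, Cd63 is a tetraspanin of late endosomes and lysosomes, and Cd9 is a tetraspanin of the plasma membrane. Lgals3 is a lectin that binds galactosides and gathers at damaged lysosomes, and Fabp5 carries fatty acids in the cytosol. Macrophages that take up lipid, for example around dying fat cells or in fatty liver, are known for carrying these transcripts together. Kupffer cells are the resident macrophages of the liver sinusoids.

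Of the 622 and 755 barcodes in the PV libraries and the 624 and 588 in the CV libraries, 333 and 512 PV cells and 372 and 376 CV cells were kept, with median depths of 5369 to 6318 UMIs. Libraries shared barcodes: 282 of the 1939 distinct barcodes stood in more than 1 library and 152 in all 4, and each was kept only where at least 70% of its UMIs lay. Ptprc, the gene of CD45, had a UMI in 92.0% to 97.6% of the kept cells of a library. The macrophage markers gave 283 cells. Of these, 231 had at least 2 of 8 Kupffer markers and are called Kupffer cells (4 and 126 in the PV libraries, 59 and 42 in the CV libraries), and 52 had fewer and are called other macrophages (16 and 16 in PV, 8 and 12 in CV). PV replicate 1 stood apart, with 4 Kupffer cells.

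The promoters of Trem2, Gpnmb and Spp1 are printed here because these genes met in the same few cells. They are RefSeq promoters on GRCm38.p6, with 250 bases before and 50 bases after a gene start, all on the plus strand, at chr17:48346151-48346450, chr6:49036268-49036567 and chr5:104434861-104435160. Capitals mark a match to the AP-1 motif TGANTCA, which reads the same on both strands.
Trem2: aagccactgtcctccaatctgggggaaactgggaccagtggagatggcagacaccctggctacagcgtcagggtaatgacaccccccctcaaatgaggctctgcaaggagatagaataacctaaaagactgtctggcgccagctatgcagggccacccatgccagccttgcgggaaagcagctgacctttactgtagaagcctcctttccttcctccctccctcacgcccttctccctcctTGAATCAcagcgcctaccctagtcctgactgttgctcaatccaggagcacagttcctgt
Gpnmb: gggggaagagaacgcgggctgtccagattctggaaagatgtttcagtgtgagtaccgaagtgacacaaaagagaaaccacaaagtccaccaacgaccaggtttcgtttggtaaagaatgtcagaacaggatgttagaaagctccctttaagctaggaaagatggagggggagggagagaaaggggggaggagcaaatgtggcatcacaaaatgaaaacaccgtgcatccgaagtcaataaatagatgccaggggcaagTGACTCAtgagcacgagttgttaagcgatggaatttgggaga
Spp1: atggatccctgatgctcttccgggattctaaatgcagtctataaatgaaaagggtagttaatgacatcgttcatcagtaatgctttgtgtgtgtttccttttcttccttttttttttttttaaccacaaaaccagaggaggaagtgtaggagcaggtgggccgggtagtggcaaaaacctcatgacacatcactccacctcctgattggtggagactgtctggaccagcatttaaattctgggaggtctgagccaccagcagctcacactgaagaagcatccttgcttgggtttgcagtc

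Counted with -1 as the base before the start and 1 as the start, the AP-1 match begins at -9 in Trem2 and at 9 in Gpnmb. It was found in 2 of the 7 promoters that RefSeq gives for 6 of the genes, and in 7.81% of all 32851 promoters. The motifs bound by the MiT/TFE factors of lysosomal genes, CACGTG (7.15% of all promoters) and TCATGTG with its reverse CACATGA (3.77%), which do not overlap the AP-1 match, were not found in these windows. A match is a run of letters and no measured binding site. In GENCODE vM21 on GRCm38, the gene bodies lie at chr17:48346401-48354147 (Trem2), chr6:49036546-49070929 (Gpnmb), chr5:104435118-104441050 (Spp1), chr10:128900989-128912822 (Cd63), chr6:125460266-125494791 (Cd9), chr14:47367751-47386160 (Lgals3) and chr3:10012548-10016607 (Fabp5). Gpnmb and Cd9 share a chromosome.

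The 7 genes did not mark 1 class of cells. Trem2 was nearly limited to macrophages, and the UMIs of Spp1, Gpnmb and Fabp5 came mainly from a handful of cells. Cd63, Cd9 and Fabp5 were also carried by neutrophils, and Lgals3 was spread over macrophages, dendritic cells and neutrophils. Macrophages held 96.0% of the 225 Trem2 UMIs, 83.5% of 1194 for Spp1, 77.6% of 214 for Gpnmb, 68.8% of 1245 for Fabp5, 55.6% of 4976 for Lgals3, 53.9% of 519 for Cd63 and 10.5% of 1612 for Cd9. Levels are given as CPM, the UMIs of a gene per 1000000 UMIs in the sum over the cells of a class in a library. The 3 cells richest in a gene held 85.5% of the UMIs of Spp1 and 5.09% of those of Cd9. Cd9 had a UMI in 403 cells, Lgals3 in 500, Fabp5 in 143, Cd63 in 110, Trem2 in 71, Gpnmb in 54 and Spp1 in 20.

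**Figure D1:**
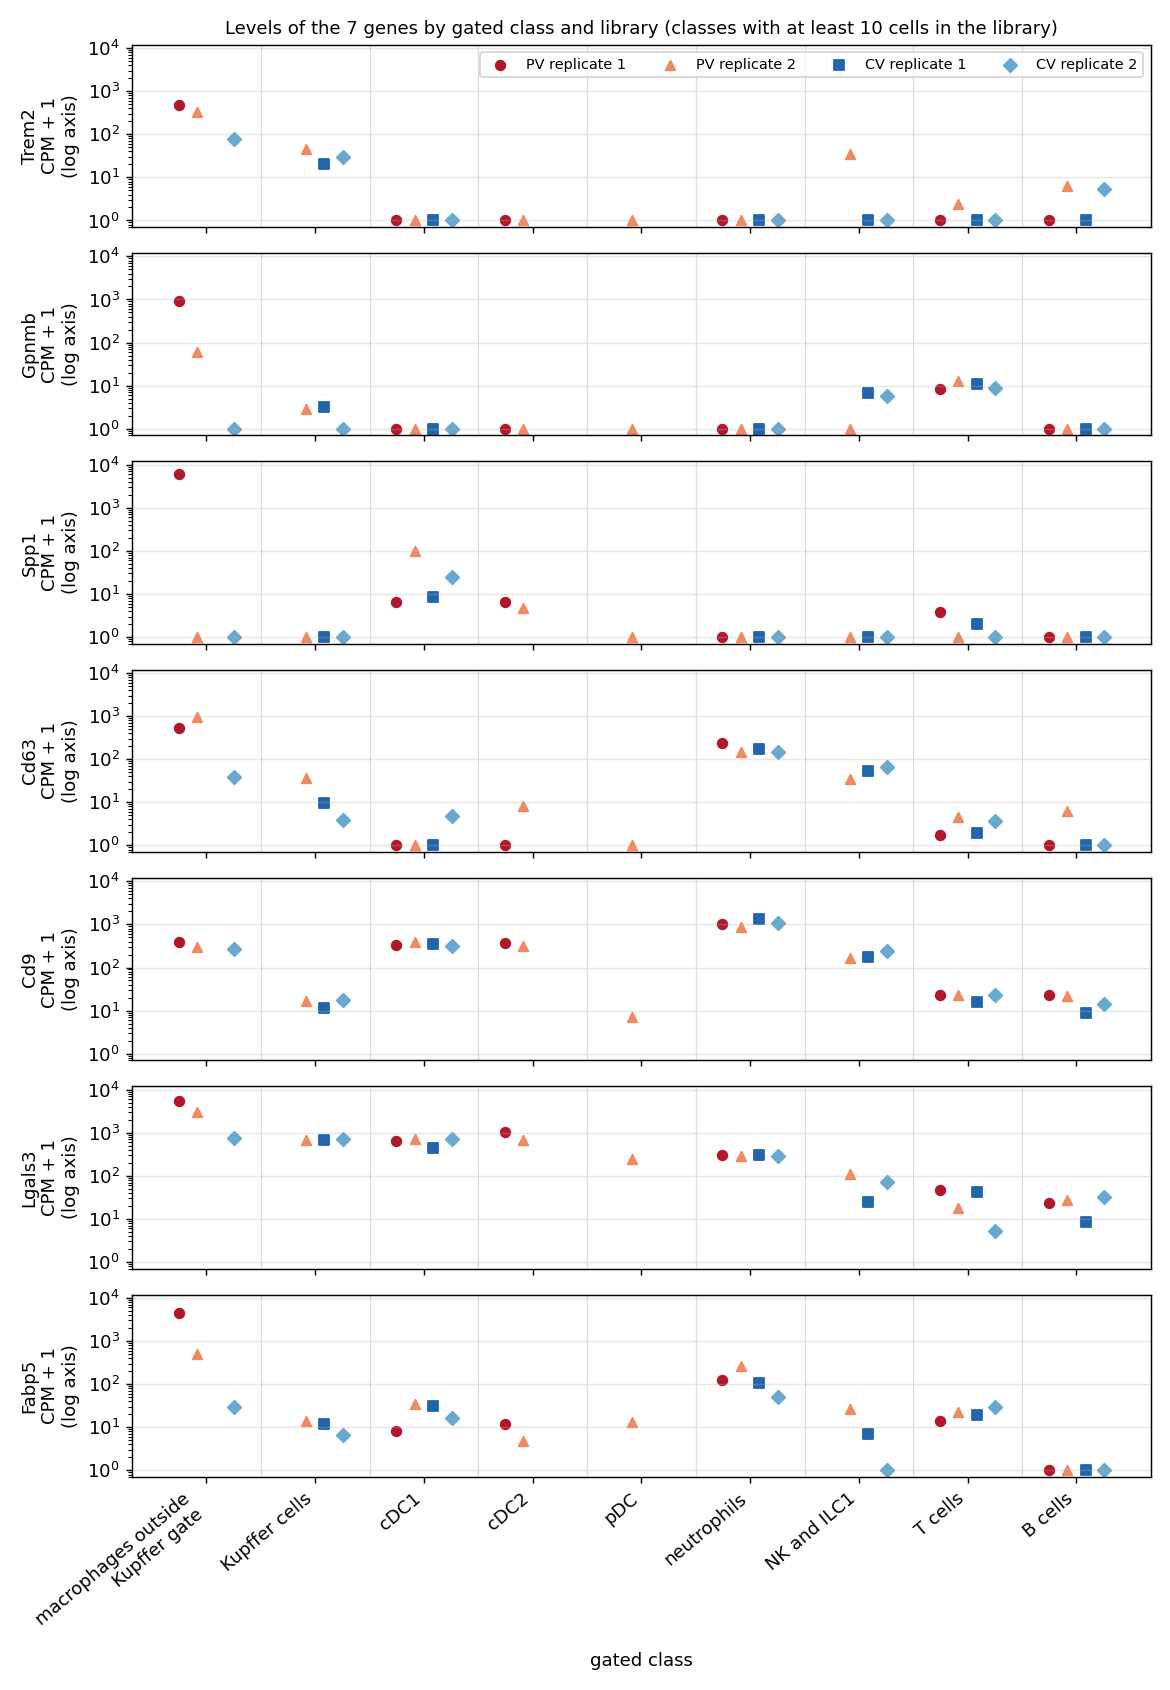
Level of each gene (CPM + 1, log axis, in the sum of a class) in each gated class, with 1 point per library where the class has at least 10 cells there. Trem2 stands at 75.0 to 469.8 CPM in other macrophages and at 0 in dendritic cells and neutrophils, while Cd9 is highest in neutrophils at 881 to 1311 CPM.

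**Figure D2:**
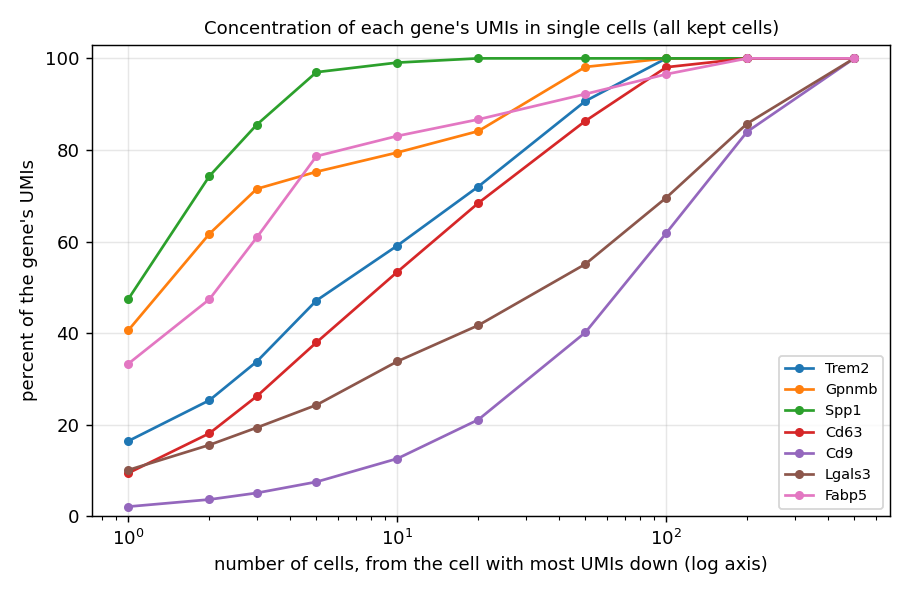
Share of a gene's UMIs (vertical axis, percent, all kept cells) held by its richest cells, counted down from the cell with the most UMIs (log axis). The richest 5 cells hold 97.0% for Spp1 and 78.6% for Fabp5, against 7.51% for Cd9.

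Trem2, the receptor, was carried by macrophages of all 4 libraries, more by other macrophages than by Kupffer cells. In other macrophages it had 78 and 50 UMIs in the PV libraries (469.8 and 335 CPM), against 13 and 8 UMIs in the CV libraries (217 and 75.0 CPM). Both PV libraries were above both CV libraries, but not without the 5 cells of PV that had at least 6 of the genes. Those left out, Trem2 was at 102.7 and 96.5 CPM in PV, against 217 and 75.0 CPM in CV, and the groups overlapped. In Kupffer cells it had 0 and 48 UMIs in the PV libraries (0 and 45.2 CPM), against 9 and 10 UMIs in the CV libraries (19.3 and 28.2 CPM). There the groups overlapped, with the 0 coming from only 4 cells.

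The number of cells with a Trem2 UMI differed less between zones than the UMIs did. Of the other macrophages, 9 of 16 and 8 of 16 carried it in PV, against 3 of 8 and 7 of 12 in CV, and the share was 56.3% and 50% in PV against 37.5% and 58.3% in CV. With each cell thinned to 2000 UMIs, which left out 5 shallower cells, 23.4% of other macrophages had a Trem2 UMI (11 of 47, Wilson 95% interval 13.6% to 37.2%). The thinned share was 7.07% in Kupffer cells (14 of 198), 0.671% in B cells (1 of 149), which should lack the gene, and 0 of 82 in cDC1, which allows up to 3.66%. Median depths were 7821 UMIs in other macrophages, 6875 in Kupffer cells and 3671 in B cells, and such intervals and limits cover counting error only.

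In the order of mean CPM over libraries with at least 10 cells of a class, other macrophages (293 ± 201, SD, n = 3) stood above Kupffer cells (30.9 ± 13.2, n = 3) with no overlap of their ranges. Such orders leave out other macrophages of CV replicate 1 (8 cells) and Kupffer cells of PV replicate 1 (4 cells). NK and ILC1 followed at 11.1 ± 19.3 (n = 3), from 4 UMIs in 1 cell. B cells, T cells, dendritic cells and neutrophils had at most 5.32 CPM in any library.

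Spp1, the secreted ligand, was nearly absent from these macrophages except in 3 cells of PV replicate 1. In other macrophages it had 997 and 0 UMIs in the PV libraries, against 0 and 0 UMIs in the CV libraries, and in Kupffer cells it had none in any library. The groups therefore differed through 1 library alone. Of 231 Kupffer cells none carried it, which allows up to 1.30% of cells with a UMI.

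The 3 cells had 567, 110 and 320 Spp1 UMIs in depths of 25852, 17395 and 15665 UMIs, and they were the only kept cells with all 7 genes. In the same order of cells, Fabp5 had 415, 168 and 175 UMIs, Gpnmb 87, 45 and 21, and Trem2 37, 14 and 16. Lgals3 had 503, 272 and 104 UMIs, Cd9 had 19, 15 and 10, and Cd63 had 14, 11 and 10. The 7 genes took 6.35%, 3.65% and 4.19% of all UMIs in these cells.

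The 3 cells held 83.5% of all kept Spp1 UMIs, 71.5% of those of Gpnmb, 60.9% of Fabp5, 29.8% of Trem2, 17.7% of Lgals3, 6.74% of Cd63 and 2.73% of Cd9. They had 0, 1 and 1 of the 8 Kupffer markers, mitochondrial shares of 1.64%, 2.24% and 3.27%, and none was called a doublet. Beside the 7 genes, those with the highest ratio of CPM + 100 to the other macrophages with fewer than 4 of the 7 were Lgals1 (3616 against 173 CPM), the lysosomal protease Ctsd (4838 against 304 CPM), Clec4d (1001 against 0 CPM), the fatty acid carrier Fabp4 (917 against 3.26 CPM) and the lipid droplet coat Plin2 (2173 against 173 CPM). Csf1r, the growth factor receptor of macrophages, had 3, 12 and 3 UMIs in them. The 6 macrophages with exactly 4 of the 7 genes had 6 to 13 each. Of other macrophage genes, C1qa had 0, 6 and 7 UMIs in the 3 cells, against 32 to 82 in those 6. Adgre1 had 2, 1 and 0 UMIs, against 0 to 5. Fos, an immediate early gene that also responds to tissue dissociation, had 110, 8 and 156 UMIs in the 3 cells, and its part in the pattern was not tested. These genes were named after their values were seen.

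A pair of cells in PV replicate 2 carried 6 of the genes, all but Spp1. They had 20 and 19 Trem2 UMIs, 188 and 107 for Lgals3, 33 and 27 for Cd63 and 55 and 17 for Fabp5, but only 4 and 4 for Gpnmb. Their leading gene was Gdf15, a stress cytokine, with 135 and 108 UMIs, against 2, 1 and 46 in the 3 cells with all 7. They also carried the MHC class II chain gene H2-Ab1 with 145 and 30 UMIs, against 3, 0 and 0 UMIs in those 3 cells.

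**Figure D3:**
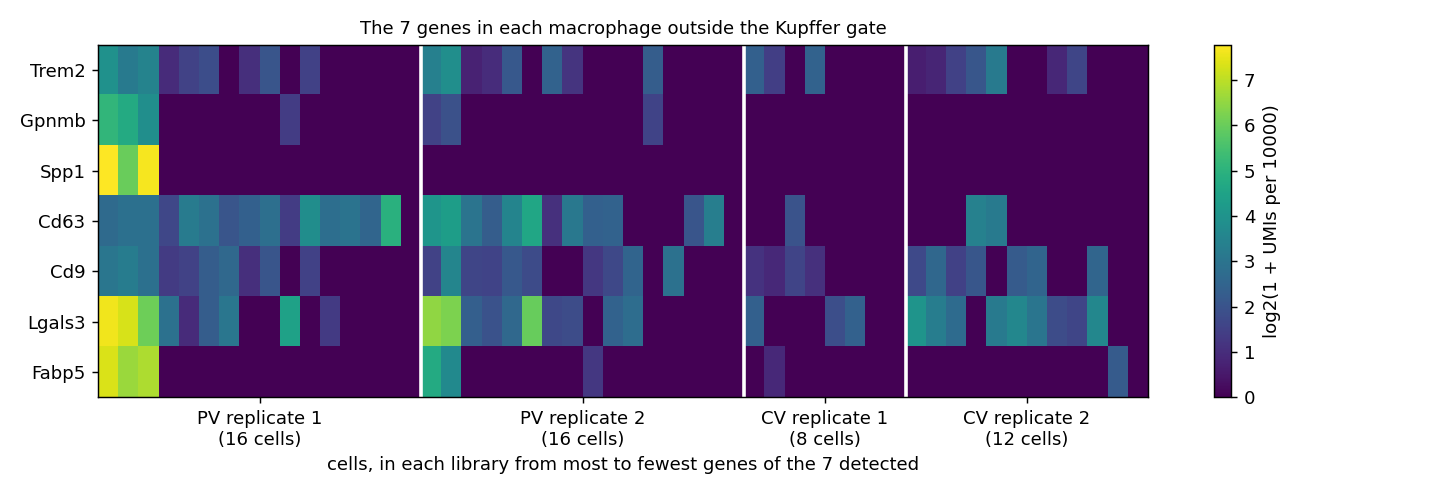
Each column is 1 of the 52 other macrophages, grouped by library from PV to CV and sorted by how many of the 7 genes were detected; colour gives log2(1 + UMIs per 10000) for each gene. Spp1 is detected in 3 columns of PV replicate 1, and Cd63 in 15 of 16 and 12 of 16 columns of PV against 1 of 8 and 2 of 12 of CV.

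Over all macrophages, 12 cells carried at least 4 of the 7 genes, 6 and 6 in the PV libraries and 0 and 0 in the CV libraries. Of these, 11 were other macrophages and 1 was a Kupffer cell, with 5 genes. The 6 with exactly 4 carried Trem2, Cd63, Cd9 and Lgals3 in each case, with 1 to 3 Trem2 UMIs, and 5 of the 12 had at least 6 genes. After thinning to 2000 UMIs, 3 and 2 macrophages of the PV libraries kept at least 4 genes, against 0 and 0 of the CV libraries. With shared barcodes kept in every library, 7 macrophages of CV also had at least 4. Outside the macrophage gate, 15 of 1310 cells carried at least 4 of the genes, 4 and 7 in the PV libraries, against 2 and 2 in the CV libraries.

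The 3 cells with all 7 genes sat at barcodes found in all 4 libraries. PV replicate 1 held 85.0%, 86.3% and 86.0% of their UMIs, and each other library held 4.50% to 5.30%. At these barcodes, Spp1 had 997 UMIs in PV replicate 1 and 63 in PV replicate 2, against 63 and 48 in CV replicates 1 and 2. Fabp5 had 758 and 52 UMIs in the PV libraries, against 55 and 60 in the CV libraries. The share of Spp1 UMIs outside PV replicate 1 was thus near the share of all UMIs there, and the removed copies had 822 to 1613 UMIs each. Barcodes holding 80% to 90% of their UMIs in 1 library were 141 of the 1593 kept cells, yet held 1155 of the 1194 Spp1 UMIs and 144 of the 225 Trem2 UMIs. No barcode had its largest share between 60% and 70%, and 3 had it between 70% and 80%, none of them macrophages. The origin of the shared barcodes was not tested.

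**Figure D4:**
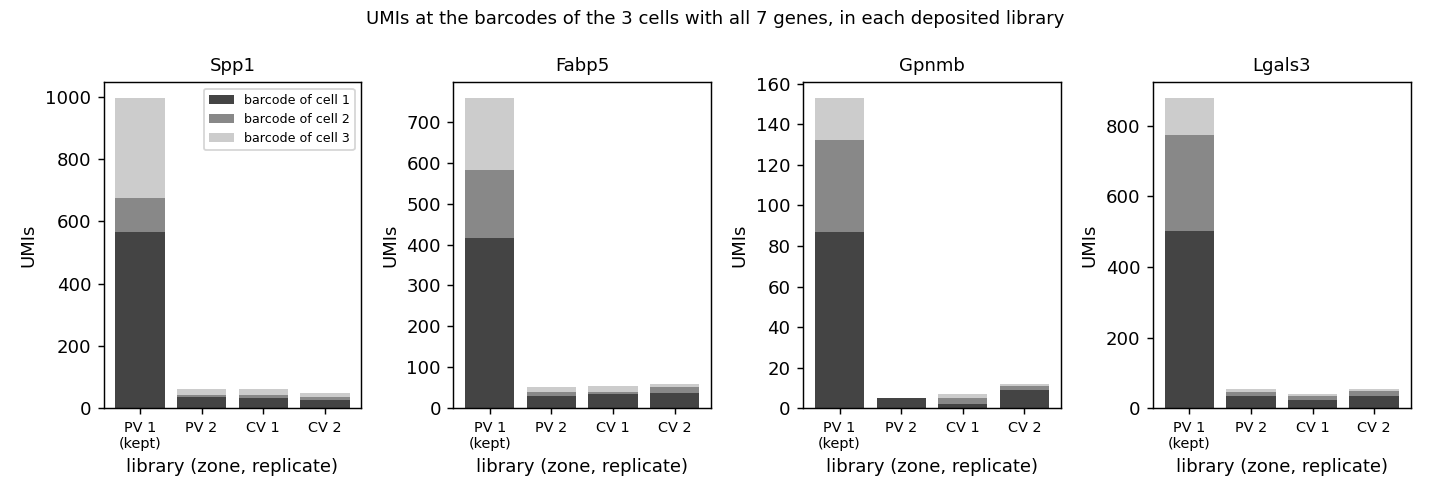
UMIs of 4 genes (vertical axis) at the barcodes of the 3 cells with all 7 genes, in each library (horizontal axis, PV left of CV), stacked by barcode. The kept copies in PV replicate 1 carry 997 Spp1 UMIs, against 48 to 63 in each other library.

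Outside macrophages, most Spp1 UMIs came from 8 cDC1 and 1 cell of no class, and single UMIs were found in 3 cDC2 and 5 T cells. It had 43 UMIs in 3 cDC1 of PV replicate 2, 27 of them in 1 cell, and 4 UMIs in PV replicate 1, against 2 and 6 UMIs in the CV libraries. In cDC1 this gave 97.7 and 5.69 CPM in PV replicates 2 and 1, against 7.73 and 23.3 CPM in CV, and the groups overlapped. The cell of no class, in PV replicate 2, had 134 Spp1 UMIs of 9894, with 0 of Ptprc, 117 of Clu, 41 of Alb, 11 of Krt18, 6 of Epcam and 4 of Krt19.

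Gpnmb followed Spp1 among macrophages, and no UMI of it was found in monocytes, dendritic cells or neutrophils. In other macrophages it had 154 and 9 UMIs in the PV libraries (927 and 60.4 CPM), against 0 and 0 in the CV libraries. The CV libraries held only 8 and 12 such cells, and 0 of 12 allows up to 25.0% of cells with a UMI. It was carried by 4 and 3 of these cells in PV, of which 5 were the cells with at least 6 genes. In Kupffer cells it had 0 and 2 UMIs in PV, against 1 and 0 in CV.

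T cells also had Gpnmb, mostly as single UMIs. It was found in 9 of 204 and 15 of 204 T cells of the PV libraries (7.30 and 11.6 CPM), against 9 of 168 and 9 of 162 of the CV libraries (9.75 and 7.83 CPM), and the groups overlapped. Thinned to 2000 UMIs, 2.22% of T cells had it (16 of 720, interval 1.37% to 3.58%), against 0 of 149 B cells, which allows up to 2.01%, and 0 of 198 Kupffer cells, which allows up to 1.52%. The thinned share in T cells lies close to the limit in B cells, so these shares did not separate the classes. In unthinned sums over all libraries, T cells had 45 UMIs (9.14 CPM) and B cells 0, which allows up to 4.74 CPM. In single libraries the limit in B cells was 13.5 to 32.9 CPM, above the levels in T cells.

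Fabp5, the fatty acid carrier, had 758 and 73 UMIs in other macrophages of the PV libraries (4565 and 489.6 CPM), against 1 and 3 UMIs in the CV libraries (16.7 and 28.1 CPM). The PV libraries were higher, and their UMIs lay in 3 and 3 cells. Without the 5 cells that had at least 6 genes, PV held 0 and 1 UMIs, against the same 1 and 3 in CV. In Kupffer cells it had 0 and 14 UMIs in PV, against 5 and 2 in CV.

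Neutrophils carried Fabp5 at 137 ± 92.3 CPM (SD, n = 4), below the mean of other macrophages (1694 ± 2497, n = 3) but with ranges that overlapped. They did not overlap the next class, cDC1, at 21.9 ± 12.8 CPM (n = 4). T cells had 20.3 ± 6.15 CPM (n = 4), in 15 and 21 cells of PV against 13 and 16 of CV. A mature dendritic cell class of 8 cells had 182 Fabp5 UMIs, 174 of them in the 4 such cells of PV replicate 2.

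Cd63, the lysosomal tetraspanin, was the gene whose zone difference in other macrophages did not rest on the 5 cells with at least 6 genes. It had 87 and 144 UMIs in the PV libraries (524 and 966 CPM), against 3 and 4 UMIs in the CV libraries (50.03 and 37.5 CPM). The groups did not overlap. Without the 5 cells with at least 6 genes, it was still at 485 and 737 CPM in PV, against 50.03 and 37.5 CPM in CV. Of the 84 UMIs then left in PV replicate 2, 49 lay in 1 cell, which also had 128 Lgals3 UMIs. In PV replicate 1, the 52 UMIs left lay in 12 cells.

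Cd63 was also found in more cells. Of the other macrophages, 15 of 16 and 12 of 16 carried it in PV, against 1 of 8 and 2 of 12 in CV. After thinning to 2000 UMIs the shares were 80% (12 of 15, Wilson interval 54.8% to 93.0%) and 46.7% (7 of 15, 24.8% to 69.9%) in PV, against 14.3% (1 of 7, 2.57% to 51.3%) and 10% (1 of 10, 1.79% to 40.4%) in CV. The intervals of PV replicate 2 and of both CV libraries overlap. The thinned share was 0.671% in B cells (1 of 149) and 3.54% in Kupffer cells (7 of 198).

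In Kupffer cells, Cd63 had 0 and 37 UMIs in the PV libraries (0 and 34.8 CPM), against 4 and 1 UMIs in the CV libraries (8.58 and 2.82 CPM), and the groups overlapped. Among classes with at least 10 cells in a library, other macrophages (509 ± 464 CPM, SD, n = 3) and neutrophils (175 ± 44.9, n = 4) came first, with ranges that overlapped. NK and ILC1 were at 50.3 ± 15.7 CPM (n = 3), below neutrophils with no overlap. The 8 mature dendritic cells, too few to enter that order, held 120 UMIs, at 753 CPM, while cDC1 had 1 UMI in 82 cells.

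Cd9, the other tetraspanin, was a gene of neutrophils and conventional dendritic cells as much as of macrophages. In other macrophages it had 63 and 44 UMIs in the PV libraries (379 and 295 CPM), against 6 and 28 UMIs in the CV libraries (100.1 and 263 CPM). Both PV libraries were above both CV libraries, the nearest pair by 295 against 263 CPM. Without the 5 cells with at least 6 genes, Cd9 was at 177 and 219 CPM in PV, against 100.1 and 263 CPM in CV, and the groups overlapped. In Kupffer cells it had 0 and 17 UMIs in PV (0 and 16.0 CPM), against 5 and 6 in CV (10.7 and 16.9 CPM).

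Neutrophils led at 1071 ± 181 CPM (SD, n = 4) with no overlap with the next class. cDC2 (346 ± 40.8, n = 2), cDC1 (345 ± 35.4, n = 4) and other macrophages (312 ± 60.3, n = 3) followed with overlapping ranges. NK and ILC1 were lower at 191 ± 38.3 CPM (n = 3), and T cells, B cells and Kupffer cells, at 20.2, 16.1 and 14.5 CPM, overlapped. Other macrophages of CV replicate 1, left out of this order with 8 cells, had 100.1 CPM. That was below the 167 to 235 CPM of NK and ILC1. The 8 NK and ILC1 cells of PV replicate 1, also left out, had 402 CPM. Thinned to 2000 UMIs, 79.5% of neutrophils carried Cd9 (66 of 83), against 2.01% of B cells (3 of 149).

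Lgals3, the lectin, was even across Kupffer cells and uneven across other macrophages. In Kupffer cells it had 659 and 668 CPM in the PV libraries, against 691 and 721 CPM in the CV libraries, from 12, 709, 322 and 256 UMIs. The CV libraries were both slightly above the PV libraries. In other macrophages it had 925 and 451 UMIs in PV (5571 and 3025 CPM), against 10 and 82 UMIs in CV (167 and 769 CPM).

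The number of other macrophages with Lgals3 did not separate the zones. It was 9 of 16 and 10 of 16 in PV, against 3 of 8 and 9 of 12 in CV. Without the 5 cells with at least 6 genes, the level was 429 and 1369 CPM in PV, against 167 and 769 CPM in CV, and the groups overlapped. Of the 156 UMIs then left in PV replicate 2, 128 lay in 1 cell. Among classes, other macrophages (3122 ± 2402 CPM, SD, n = 3), cDC2 (869 ± 274, n = 2), Kupffer cells (693 ± 26.9, n = 3) and cDC1 (629 ± 123, n = 4) formed a chain of overlapping ranges, and neutrophils were lower, at 287 to 302 CPM in 4 libraries. Other macrophages of CV replicate 1, left out of this order with 8 cells, had 167 CPM, below neutrophils. T cells had Lgals3 at 45.3 and 17.4 CPM in PV, against 40.9 and 4.35 CPM in CV, and the groups overlapped. After thinning, 4.44% of T cells (32 of 720) and 4.03% of B cells (6 of 149) had a UMI. The thinned share was 39.8% in neutrophils (33 of 83), against 36.2% in other macrophages (17 of 47) and 61.1% in Kupffer cells (121 of 198).

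**Figure D5:**
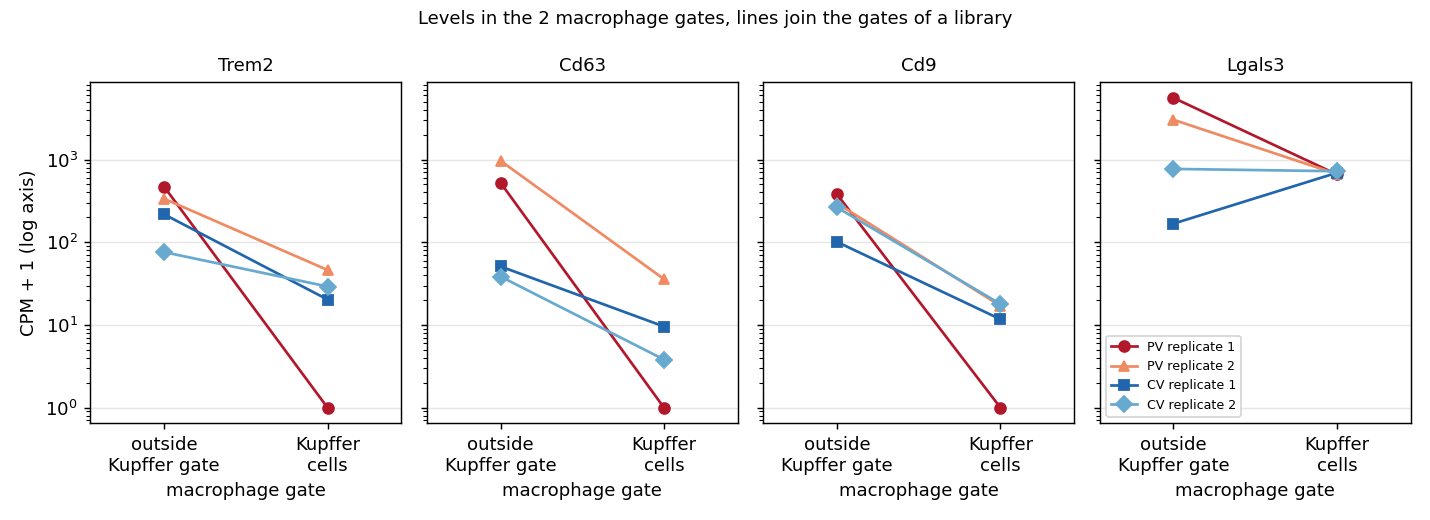
Levels of 4 genes (CPM + 1, log axis) in other macrophages (left) and Kupffer cells (right), with a line for each library. Lgals3 meets at 659 to 721 CPM in Kupffer cells, and the 3 points at 1 are genes with no UMI in the 4 Kupffer cells of PV replicate 1.

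In sums over all macrophages of a library, edgeR's quasi-likelihood test called 0 of 5979 genes between PV and CV, 0% of those tested, with 111 at an unadjusted p under 0.05 and 2 called by DESeq2. Omitting a library gave 15 calls (PV replicate 1 omitted) or 452 (PV replicate 2), and 1 (CV replicate 1) or 19 (CV replicate 2). Of the 7 genes, 5 passed the filter on low counts and 0 were called; nothing is read from that count, since zone values were known when the genes were listed. Their log2 fold changes were 2.66 ± 0.78 for Trem2, 4.72 ± 0.72 for Cd63, 2.06 ± 0.93 for Cd9, 2.31 ± 0.74 for Lgals3 and 7.72 ± 1.77 for Fabp5 (PV over CV, SE). Gpnmb, at 835.8 and 9.08 CPM in PV against 1.90 and 0 CPM in CV, and Spp1, with counts in PV replicate 1 alone, did not pass that filter. These sums also mix the gates: other macrophages were 16 of 20 and 16 of 142 macrophages in PV, against 8 of 67 and 12 of 54 in CV.

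Leaving out the 3 cells with all 7 genes lowered the fold change to 1.07 for Trem2, 0.88 for Cd9 and 0.13 for Lgals3, and left Cd63 at 4.47. Fabp5 was then not tested. Leaving out PV replicate 1, the library of those cells, gave 0.96 for Trem2, 0.10 for Cd9, 0.46 for Lgals3, 2.64 for Fabp5 and 3.57 for Cd63.

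In other macrophages alone, with 3 cells per library as the minimum, 0 of 1928 genes were called, 0% of those tested (157 at an unadjusted p under 0.05, and 11 called by DESeq2), and 0 to 39 were called with a library left out. The log2 fold changes of PV over CV were 4.09 ± 0.56 for Cd63, 6.72 ± 1.18 for Fabp5, 3.17 ± 0.62 for Lgals3, 1.59 ± 0.53 for Trem2 and 0.82 ± 0.48 for Cd9. In Kupffer cells, 2 of 5367 genes were called, 0.0373% of those tested, none of them among the 7, of which Trem2 (0.86 ± 0.55) and Lgals3 (-0.21 ± 0.42) were tested. In T cells, 0 of 8017 genes were called, 0% of those tested (236 at an unadjusted p under 0.05), with -0.46 ± 0.36 for Fabp5 and 0.07 ± 0.49 for Gpnmb.

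Between the gates, the tested genes differed widely: edgeR with the library as a block called 455 of 2380 genes, 19.1% of those tested, 224 higher (9.41%) and 231 lower (9.71%) in other macrophages than in Kupffer cells. Of the 3 genes of the list that could be tested, Cd9 (log2 fold change 4.13 ± 0.40, other macrophages over Kupffer cells) and Trem2 (2.99 ± 0.41) were among the calls and Lgals3 (1.16 ± 0.53) was not. Nothing is read from these calls, since leading genes of macrophage clusters were known when the genes were listed. Trem2 and Cd9 were higher in other macrophages in 4 of 4 libraries, and Lgals3 in 3 of 4. The other macrophages held other cell markers too. The 8 classical monocyte markers summed to 596 and 597 CPM in PV and to 517 and 1022 CPM in CV, against 54.9 to 102 CPM in Kupffer cells. In T cells these markers also summed to 457 to 566 CPM, and 1 of them, Vcan, had no UMI in other macrophages. The 7 cDC2 markers summed to 50.03 to 732 CPM in other macrophages, against 0 to 75.3 CPM in Kupffer cells. Lists that went the other way included patrolling monocytes (161 to 367 CPM, against 549 to 832 CPM) and hepatocytes (234 to 584 CPM, against 933 to 1367 CPM). The part of monocytes and cDC2 in these differences was not tested. The Kupffer markers summed to 0 to 84.4 CPM in other macrophages, against 14964 to 17790.5 CPM in Kupffer cells.

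Just below the Kupffer threshold, the 8 cells with 1 Kupffer marker had 53 Trem2 and 51 Cd9 UMIs at a median depth of 14924 UMIs. Of these cells, 3 carried at least 6 of the genes and had 14, 16 and 19 Trem2 UMIs, and each of the other 5 had at most 3. Just above it, the 5 cells with 2 markers had 8 Trem2 UMIs and 1 Cd9 UMI at a median depth of 4822 UMIs.

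The genes around Trem2 and lipid handling did not move as a group between the gates. The lists of these genes were chosen with earlier results of these cells known. Calls and adjusted p-values of listed genes are therefore given as a description only. Of 14 tested genes of lipid uptake, storage and efflux, 2 were higher and 3 lower in other macrophages, with a median log2 fold change of -0.30 against -0.02 over all genes. Over all 2380 genes tested, 9.41% were higher and 9.71% lower. Whether the counts of this and the following short lists differ from these shares was not tested. Apoe, the lipoprotein bound by Trem2, was at 27318 and 25078 CPM in other macrophages of PV, against 12300 and 16398 CPM in Kupffer cells there, and at 39273 and 13562 CPM in CV, against 13273 and 14720 CPM. It rose by 1.03 ± 0.31 (edgeR adjusted p = 0.020 over all genes), and the call was lost without PV replicate 1 (adjusted p = 0.0699) or CV replicate 1 (adjusted p = 0.286), and with stricter cell limits (adjusted p = 0.106). Nr1h3, a sterol-sensing nuclear receptor that Kupffer cells depend on, fell by 3.69 ± 0.34 (edgeR adjusted p = 1.3e-07), with 16.7 to 75.0 CPM in other macrophages, against 647 to 1592 CPM in Kupffer cells. The scavenger receptor genes Lrp1 (-1.29 ± 0.28) and Msr1 (-1.15 ± 0.31) also fell, and the call of Msr1 was lost without PV replicate 2 (-0.89).

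Of 16 lysosomal genes, 1 was higher and 4 lower in other macrophages (median -0.37). Grn (-2.01 ± 0.27), which encodes progranulin, and the protease genes Lgmn (-1.76 ± 0.30) and Ctsb (-1.23 ± 0.32) fell, and the call of Ctsb was lost without CV replicate 2 (-0.78). Of 7 signalling partners of Trem2, 0 were higher and 2 lower, the sheddase Adam10 (-1.14 ± 0.37) and the adaptor Hcst (-1.19 ± 0.41), and both calls were lost under other settings. That of Adam10 was lost without PV replicate 1 (-0.83) or PV replicate 2 (-1.15), in DESeq2, without the filter on low counts and with stricter cell limits. That of Hcst was lost without PV replicate 2 (-0.91) or CV replicate 1 (-1.15), under RLE size factors, in DESeq2, without the filter and with 3 Kupffer markers required. Of 6 osteopontin receptor genes, 1 was lower, the integrin Itga9 (-1.55 ± 0.42), a call lost without CV replicate 2, while Cd44 was at -0.59 ± 0.30 and not called. Both tested MiT/TFE genes were lower, Tfec (-2.03 ± 0.52) and Tfe3 (-1.48 ± 0.42), calls that were each lost without PV replicate 2, and for Tfe3 also without either CV library.

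Among relatives of the 7 genes, the tetraspanin Tspan4 (-2.63 ± 0.47) was the 1 of 5 called, and it was lower. The galectin ligand Lgals3bp (-1.19 ± 0.30) was the 1 of 3 called, also lower, and no other fatty acid binding protein could be tested. Of 11 tested other genes known from lipid-associated macrophages, 2 were higher and 2 lower (median 0.24). Ms4a7 rose by 1.99 ± 0.38 (edgeR adjusted p = 0.00069), with 530.0 and 1013 CPM in other macrophages of PV against 275 and 122 CPM in Kupffer cells there, and 267 and 75.0 CPM in CV against 98.7 and 53.5 CPM. Mmp12, an elastase, rose by 3.82 ± 1.31 (edgeR adjusted p = 0.045), unevenly, with 939 CPM in other macrophages of PV replicate 2. In CV replicate 1 it went the other way, at 0 CPM in other macrophages against 191 CPM in Kupffer cells. The call of Mmp12 was lost without PV replicate 1 or without the 3 cells with all 7 genes. It was also lost with 3 Kupffer markers required and without the library block. Igf1 (-1.87 ± 0.39) and Axl (-0.94 ± 0.27) fell, and the call of Axl was lost without PV replicate 1 (-0.83) or without CV replicate 1 (-0.90) or CV replicate 2 (-0.92).

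The gate difference was itself compared between zones in a fit of 3210 genes, of which edgeR called 0.343%, with 0.218% higher in PV. Of the 5 genes of the list that were tested, Lgals3 was called, with a gate difference larger by 3.37 ± 0.66 (log2, PV minus CV), and the call was lost without either CV library or without the 3 cells with all 7 genes. The other differences were 4.10 ± 1.16 for Fabp5, 1.91 ± 1.16 for Cd63, 0.55 ± 0.92 for Cd9 and 0.53 ± 0.81 for Trem2. Nothing is read from this count either.

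Between zones, no gene of these 9 lists was called in the sums over all macrophages. The genes with the smallest p of their lists included Ms4a7, at 505 and 232 CPM in PV against 118 and 58.5 CPM in CV (2.13 ± 0.54), Itgax (1.74 ± 0.71), Lgals1 (3.87 ± 1.40) and Plin2, at 874 and 147 CPM in PV against 125 and 115 CPM in CV (2.20 ± 0.77). Others were lower in PV, among them Fabp7, at 10.9 and 299 CPM against 616 and 481 CPM in CV (-1.67 ± 0.80). Hcst (-0.67 ± 0.43) and Lpl (-0.55 ± 0.40) were lower too. Fold changes were above 0 for 11 of 13 other lipid-associated macrophage genes and 10 of 18 lysosomal genes. They were above 0 for 7 of 15 genes of lipid uptake, storage and efflux, 3 of 9 tetraspanin genes and 0 of 4 MiT/TFE genes. Plin2 and Lgals1 were high in the 3 cells with all 7 genes, with 128 of the 161 Plin2 UMIs and 213 of the 228 Lgals1 UMIs of PV replicate 1. Capg (1.31 ± 0.70) turned to -0.28 without those cells.

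Across 29 sums of a class in a library, over 10 classes, the levels of the 7 genes followed different partners among 8484 genes. The highest Pearson correlations, of log2(CPM + 10), were with Ms4a7 (0.93), Pf4 (0.93) and Ccl2 (0.90) for Trem2, and with Cd68 (0.92), Cd300c2 (0.91) and Plbd1 (0.89) for Lgals3. They were with Lilr4b (0.85), Lilrb4a (0.82) and Clec4d (0.81) for Cd63, and with Anxa1 (0.88), Gm34084 (0.87) and Gpr141 (0.86) for Cd9. Spp1 and Gpnmb were closest to each other (0.79), followed by Ccl7 (0.77) and Dtx4 (0.76) for Gpnmb and by Cyp8b1 (0.67) and Errfi1 (0.64) for Spp1, and Fabp5 was closest to Cd93 (0.72), Gpnmb (0.70) and Cstb (0.70). Trem2 and Cd9 were nearly unrelated (0.04). The sums share 4 libraries and, for Spp1, Gpnmb and Fabp5, the same 3 cells, so these values are a description.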

How the data were processed

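The authors deposited 1 matrix of UMI counts per gene and barcode for each of the 4 libraries. Per the labels' protocols, libraries were made with the 10x Chromium 3′ v3.1 kit, which reads transcript 3′ ends. The submitters' processing notes list version 4.0.0 of Cell Ranger and the build mm10. Depth and counting limits stand in the report. The members, markers and gene lists were chosen with earlier results of these data known.

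Barcodes with at least 200 genes and at most 10% mitochondrial UMIs were kept in the library holding at least 70% of their UMIs. Cells took the marker list with the highest share detected (at least 3 markers); 12 doublet calls of scrublet (scanpy 1.11.5) were kept. Counts were summed per library and class and tested in edgeR 4.0.16 (TMM, filterByExpr, Benjamini-Hochberg adjusted p under 0.05 over all genes tested), without the replicate numbers, which no label ties to a shared source. Standard errors of log2 fold changes were taken from the quasi-likelihood F statistic. Gate markers were left out of the gate tests. The scripts were tested on simulated counts. Of each list, the genes with the 4 smallest p between gates and the 3 smallest between zones could be named, and other names were picked with their values known. A gene that this rule named is not reported here. The planned minimum of 10 cells per library could not be met in the macrophage gates, so 3 was used there. Alternatives included DESeq2 1.42.0, other filters and gates, and leaving out libraries. Replicates of a zone differed beyond counting noise (chi-square per degree of freedom 17.3 in PV and 10.4 in CV).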

Additional observations from a re-analysis of the deposited data

Results flagged for a closer look

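The gate difference of Lgals3 was called between zones. The log2 fold change of other macrophages over Kupffer cells was 3.37 ± 0.66 higher in PV than in CV, and in the fit across 3210 genes, of which 0.343% were called, this interaction was a call. Lgals3 was at 5571 and 3025 CPM in other macrophages of PV and at 659 and 668 CPM in Kupffer cells there, and at 167 and 769 CPM against 691 and 721 CPM in CV. The call was lost without CV replicate 1 (log2 difference 2.62), without CV replicate 2 (4.84) and without the 3 cells with all 7 genes (1.95). The zone values of Lgals3 were known when it was listed, so nothing is read from the call.

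Spp1 UMIs lay at barcodes that the shared-barcode rule removed, 63 in PV replicate 2, against 64 in CV replicate 1 and 52 in CV replicate 2, while the kept cells there held 178, 4 and 6. Of the removed UMIs, 63, 63 and 48 stood at the barcodes of the 3 cells of PV replicate 1 with all 7 genes.

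The cell of PV replicate 2 that no marker list took had 134 Spp1 UMIs.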

How the results depend on the processing

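Genes called between zones in all macrophages numbered 0, with 2 in DESeq2, 67 without a filter on low counts, and 1 to 452 with a library left out (452 without PV replicate 2). In other macrophages they numbered 0, with 1 under RLE size factors, 11 in DESeq2, 23 without the filter, 9 with shared barcodes kept, 10 with stricter cell limits, 10 with 3 Kupffer markers required, 1 without the 3 cells with all 7 genes, and 0 to 39 with a library left out. In Kupffer cells they numbered 2, with 0 in DESeq2, 6 without the filter and 2 to 15 with a library left out, and in T cells 0, with 17 to 61. The gate calls, 455, became 728 with shared barcodes kept and 313 to 533 with a library left out. The zone difference of the gate contrast had 11 calls, 5 in DESeq2, 6 without the filter and 4 to 25 with a library left out. The causes were not tested.

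With the replicate number as a block, 10 genes were called in other macrophages and 1 in T cells; the deviations of same-numbered libraries correlated at -0.09 in macrophages and 0.14 in T cells across genes, and with 2 pairs and no label that ties the numbers to a shared mouse or day, the libraries were not treated as paired.

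Cd63 in other macrophages was called between zones under 10 of 15 alternatives, Lgals3 under 7 of 15 and Fabp5 under 7 of 14. In the gate contrast Trem2 was called under 15 of 15, Cd9 under 16 of 16 and Lgals3 under 4 of 16. Without the 3 cells with all 7 genes, Trem2 was not tested in that contrast. Nothing is read from these counts, since earlier results of these cells were known when the genes were listed. The mean thinned share of other macrophages with Cd63, 63.3% in PV and 12.1% in CV, became 26.0% and 4.17% at 1000 UMIs, and for CV 16.2% with shared barcodes kept and 8.33% with stricter cell limits. Macrophages with at least 4 genes numbered 12 in PV, 6 without either library, and 0 in CV, 7 with shared barcodes kept. Those 7 were all copies that the shared-barcode rule removed from the CV libraries.

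Zone fold changes that changed sign were those of Cstb (-0.23), Lgals9 (-0.0465) and Capg (-0.28) without the 3 cells, and of Tfec (0.0183) with shared barcodes kept. With a library left out, ranges that crossed 0 were -1.49 to 0.0708 for Itga9, -2.11 to 0.0055 for Tspan4, -2.003 to 0.23 for Tfec and -0.34 to 2.17 for Capg in macrophages, -5.74 to 1.10 for Trem2 in Kupffer cells, and in T cells -0.32 to 0.38 for Gpnmb, -0.033 to 0.57 for Cd9 and -0.42 to 2.76 for Lgals3. Likewise they were -0.67 to 0.047 for Lgals8 between gates and -0.30 to 7.06 for Trem2 in the zone difference of that contrast. With 4 and 8 cells in the smallest sums, depth limits what a library shows there.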
